A study of Rattus norvegicus with 27 samples.

Results

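Lung fibroblasts moved from the animal to a culture surface change their gene expression over the first days, and the step described here is the one from day 2 to day 4 on a soft surface. The libraries compared are the 4 labelled PDMS day 4 and the 4 labelled PDMS day 2, which are 8 of the 27 libraries of the series. They were picked by substrate and day alone, with no measured value. All of them hold RNA of primary lung fibroblasts of the Sprague-Dawley rat, an outbred stock, marked as wild type (WT) and as monoculture in the deposited column names. No label names a treatment beyond the culture surface. The cells had been enriched with magnetic beads for CD90, also named Thy-1, a surface antigen of many fibroblasts that other cells can carry too. Both groups grew on polydimethylsiloxane (PDMS), a silicone with a stiffness of 3 to 5 kPa. The silicone carried a coat of rat tail collagen I (38 µg/ml) and the cells were kept in MucilAir medium. The remaining libraries come from PDMS at days 7 and 14 and from coated plastic at days 4, 7 and 14. The labels give no age, sex, animal or isolation for a library, and a p-value here therefore reflects how far these libraries differ, which may be technical in part. In RNA of whole cultures, fewer cells of a type and less RNA per cell cannot be told apart.

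Fibroblasts are the cells that lay down and remodel collagen and other matrix in the lung. They sense the stiffness of what they adhere to through integrins and the actin cytoskeleton. A stiff surface is known to push them towards contractile myofibroblasts, which is why soft silicones are used to hold cells nearer to the compliance of tissue. Freshly seeded cells must also attach, spread and leave the state set by tissue dissociation, so early days on any surface combine several adjustments. The files name genes by Ensembl ID without symbols, and 0 of the 32753 IDs could be paired with a symbol through RefSeq (GRCr8). The fibroblast label could therefore not be checked against markers here, no pathway or marker list could be counted, and genes are described by level, direction and course.

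Total counts ran from 17.3 to 22.7 M (M, mega) at day 2 and from 19.9 to 21.9 M at day 4. Neither this depth, nor how many genes reached 10 reads, nor the share of reads in the top 10 genes differed beyond the spread of the libraries (two-sided exact permutation test, n = 4 and 4, p = 0.543, 0.4 and 0.543, each 0.543 after Benjamini-Hochberg adjustment over 4 tests, where 0.0286 is the smallest p possible). No 2 libraries of a group were copies of each other. The closest pair, PDMS day 4 replicates 1 and 3, differed by a chi-square of 31.6 per degree of freedom over genes, where sampling noise gives about 1.

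One library went against its group. PDMS day 2 replicate 4 had a mean Pearson correlation of 0.97 with the 4 PDMS day 4 libraries and of 0.931 with the other 3 PDMS day 2 libraries, on log2 CPM across genes (counts per mega of the scaled library size). The other PDMS day 2 libraries all leaned towards their own group, with 0.941 against 0.895 for replicate 1, 0.935 against 0.908 for replicate 2 and 0.951 against 0.928 for replicate 3. Within PDMS day 4 the mean correlation was higher with the own group in all 4 libraries. By single pairs, PDMS day 4 replicate 2 was closest to PDMS day 2 replicate 4, at 0.971, against 0.938 to 0.95 within its own group. The labels of PDMS day 2 replicate 4 were kept. The counts of called genes, the levels, the shares of reads and the folds of single IDs are given with and without that library.

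The first component of log2 CPM over the 8 libraries carried 48.6% of the variance and the second 27.9%. PDMS day 2 replicates 1, 2 and 3 scored -93.2, -65.6 and -54 on the first, and PDMS day 4 replicates 1 to 4 scored 44.3, 33.1, 44.1 and 64.2. PDMS day 2 replicate 4, at 27, lay on the day 4 side. On the second component both libraries numbered 2 were set apart, at -64.7 for day 2 and -72.7 for day 4. Those numbered 1 and 3 lay between 21.2 and 39.8 at both days. Those numbered 4 were at -17.7 and 29.7.

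**Figure D1:**
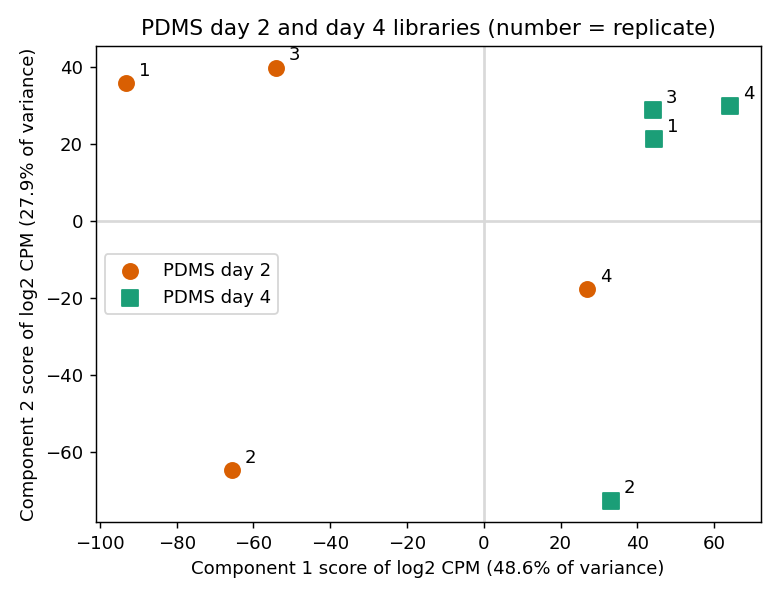
Scores of the 4 PDMS day 2 libraries (circles) and the 4 PDMS day 4 libraries (squares) on the first (x) and second (y) principal component of log2 CPM, each point a library with its replicate number. Day 2 replicate 4, at 27 on the x axis, sits with the day 4 libraries at 33.1 to 64.2, and both libraries numbered 2 lie at the bottom, at -64.7 and -72.7.

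Split by sums of squares over these 8 libraries, day took 34.4% of the variation, with 14.3% of the degrees of freedom. The replicate number took 43.5% and the rest 22.2%, each with 42.9% of the degrees of freedom. Deviations from the group means were positively correlated in all 4 pairs of equal number, at 0.25, 0.57, 0.24 and 0.14 for numbers 1 to 4. By that criterion the numbers were treated as pairs in an added fit. The sharpest match is number 2, the best partner in both directions. Day 2 replicate 1 matched day 4 replicate 3 better, at 0.43, and day 2 replicate 3 matched day 4 replicate 4 better, at 0.41, so the pairing is not clear for every number.

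Where each library stood between the days was measured on an axis from the PDMS day 2 mean, at 0, to the PDMS day 4 mean, at 1, over all tested genes, with the library itself left out of the means. Noise in the group means draws such positions towards the middle. PDMS day 2 replicates 1, 2, 3 and 4 stood at -0.37, 0.07, 0.06 and 0.81. PDMS day 4 replicates 1, 2, 3 and 4 stood at 0.91, 0.54, 0.91 and 1.11. The values of the groups thus overlapped, with a higher one for day 2 replicate 4 than for day 4 replicate 2. As the means were rebuilt for each left-out library, these values do not lie on exactly the same axis. Only the axis for day 2 replicate 4 had a day 2 mean without that library. PDMS day 7 stood at 1.47 ± 0.057 (SD, n = 4) and PDMS day 14 at 1.6 ± 0.0925 (n = 4). Plastic gave means of 0.842 ± 0.273, 1.41 ± 0.12 and 1.62 ± 0.037 (n = 4, 3 and 4) on days 4, 7 and 14. Every library of days 7 and 14, on either surface, lay beyond the 4 PDMS day 4 libraries, between 1.31 and 1.68.

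**Figure D2:**
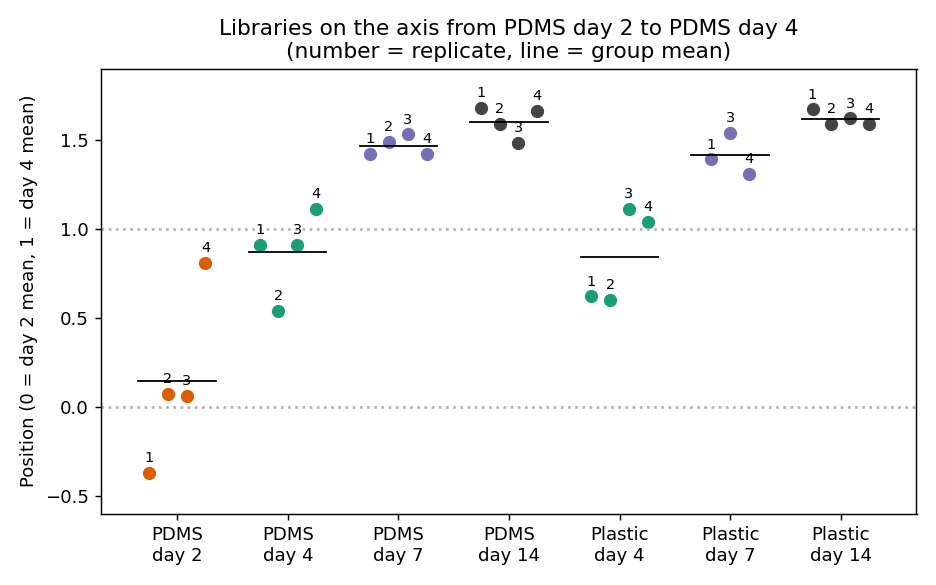
Position of each of the 27 libraries (points with replicate numbers) on the axis from the PDMS day 2 mean (0) to the PDMS day 4 mean (1), by group, with a line at each group mean. PDMS day 2 replicate 4 stands at 0.81 and the other day 2 libraries at -0.37 to 0.07, and libraries of days 7 and 14 stand at 1.31 to 1.68.

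In the fit of all 27 libraries, genes were called in both directions between day 2 and day 4. Of 14258 genes tested, 1428 (10.0%) were called. At day 4, 737 (5.17%) stood higher and 691 (4.85%) lower (edgeR quasi-likelihood test on a fit of all 27 libraries, Benjamini-Hochberg adjusted p under 0.05, n = 4 and 4). On the log2 scale the median change was -1.46 among the genes that fell and 1.09 among those that rose, while all tested genes together had a median of -0.01. The larger median of the falls was seen at low levels only, as the split by level shows. More than 4-fold changes were seen in 261 of the 691 genes that fell and in 109 of the 737 that rose, and more than 2-fold changes in 449 and 408. The steepest 10% of the falls lay below -3.31 and the steepest 10% of the rises above 2.31.

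With the replicate number as a block for the 8 libraries of PDMS days 2 and 4 only, the total was 1809, with 1110 higher and 699 lower. Rises then made up 61.4% of the calls in place of 51.6%. The other groups carried no block in that fit and still added their full spread between libraries. Of the genes called without the block, 711 of the 737 and 575 of the 691 were called in the same direction with it. A fit of these 8 libraries alone called 0 genes (smallest edgeR adjusted p = 0.0823; 2892 genes at an unadjusted p under 0.05), and 263 with the block. In that fit the spread between libraries comes from PDMS days 2 and 4 only. The main fit instead shares the spread of each gene over all groups. The day 2 libraries varied more than those of day 4 (median SD of log2 CPM 0.403 against 0.264). Whether the shared spread is too small for day 2, which would add calls, was not tested.

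Single libraries weighed heavily on the number of calls. Without PDMS day 2 replicate 4 it rose to 3307 of 14248 genes (23.2%), with 1767 (12.4%) higher and 1540 (10.8%) lower. Of the 1428 genes, 729 of the 737 and 686 of the 691 stayed called in the same direction, and 0 turned. Both fits share all other libraries, so such agreement is in part built in. The median log2 fold changes of the calls without PDMS day 2 replicate 4 were 1.11 and -1.36. Leaving out another library lowered the count in 6 of the other 7 cases. From the day 2 group, removing replicate 1 left 56 calls, replicate 2 left 757 and replicate 3 left 489. From the day 4 group, removing replicate 1, 3 or 4 left 431, 476 or 238 calls, and removing replicate 2 gave 1500.

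**Figure D3:**
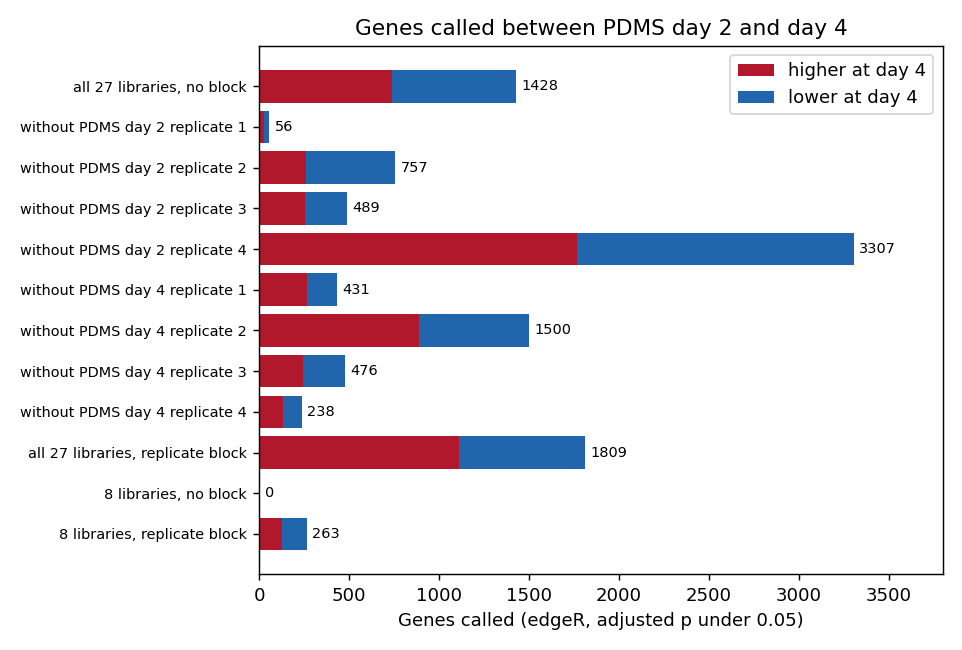
Number of genes called between PDMS day 2 and PDMS day 4 (x axis), with those higher at day 4 in red, those lower in blue and the total at the bar's end. Bars show the fit of all libraries, the fits with a PDMS day 2 or day 4 library left out, and those with the replicate block. The block covers PDMS days 2 and 4 only. The total runs from 56 without day 2 replicate 1 to 3307 without day 2 replicate 4, and from 0 to 263 in the fits of the 8 libraries alone.

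Called genes were found at every level of expression, but the size of their changes differed with it. Levels here are the mean CPM of both groups, with genes split at 1, 10 and 100. The share of genes called was 6.2% under 1 CPM (1726 genes), 11.1% from 1 to 10 (3256), 9.98% from 10 to 100 (7127) and 11.5% above 100 (2149). Among the called genes the share that rose was lowest from 1 to 10 CPM, at 40.3% (146 higher, 216 lower), and highest above 100 CPM, at 60.5% (150 higher, 98 lower). Among the genes that fell, the median log2 change was -2.56 under 1 CPM and -2.39 from 1 to 10 CPM, against -0.98 from 10 to 100 and -0.76 above 100. For the genes that rose it went from 2.37 through 1.35 and 1 to 0.92. The median fall was thus larger than the median rise under 10 CPM, about equal to it from 10 to 100 CPM and smaller above 100 CPM. Without PDMS day 2 replicate 4 the shares called were 13.6%, 25.1%, 23.4% and 27.4% from the lowest level to the highest, and the median falls and rises were -2.24 and 1.53 from 1 to 10 CPM and -0.84 and 0.83 above 100 CPM. A gene with few reads needs a larger change to be called, so part of this gradient follows from the test.

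**Figure D4:**
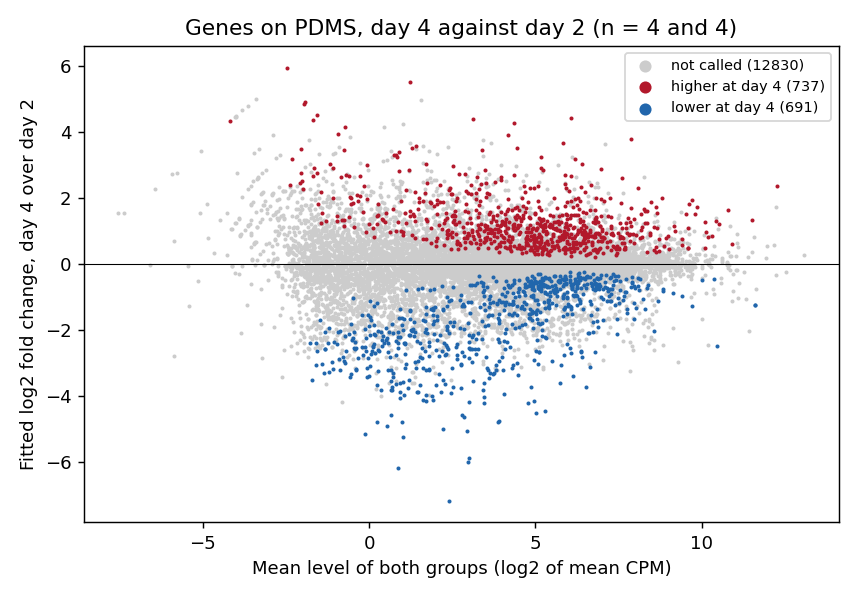
Fitted log2 fold change of day 4 over day 2 on PDMS (y) against the log2 of the mean CPM of both groups (x), 1 point per tested gene, with genes called higher in red (737), genes called lower in blue (691) and the rest in grey. Calls reach further from 0 at low levels than at high ones, and further down than up.

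In terms of reads, the 737 genes held 3.01%, 4.33%, 4.7% and 7.42% of the counts in PDMS day 2 replicates 1 to 4 and 10.6%, 8.53%, 10.8% and 11.6% in PDMS day 4 replicates 1 to 4. The groups did not overlap, and day 2 replicate 4 was the nearest to day 4. The mean share rose by 5.51 percentage points, and 27 of the 737 genes carried 50% of that gain or more. The 691 genes held 8.59%, 6.04%, 6.35% and 3.35% of the counts at day 2 and 2.74%, 2.94%, 3.18% and 2.69% at day 4. Their mean share fell by 3.2 percentage points, with 36 genes making up 50% or more of the loss. Without PDMS day 2 replicate 4 the mean shares moved by 6.36 and -4.11 percentage points. The genes were chosen by this same contrast, so these shares describe their weight and are no separate test.

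The PDMS day 2 libraries differed more among themselves than the PDMS day 4 libraries. The median SD of log2 CPM between the libraries of a group was 0.403 at day 2 and 0.264 at day 4, and it was larger at day 2 in 73.4% of the tested genes. It was 0.344 at day 2 without replicate 4, and 0.389, 0.36 and 0.417 without replicates 1, 2 and 3. Among the genes called lower, 93.9% varied more at day 2, and among those called higher 80.3% did. These shares and the 73.4% were taken with PDMS day 2 replicate 4 included. In that library the median log2 difference from the group mean was -0.93 for genes called lower and 0.63 for those called higher. The difference in spread was not tested.

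Between libraries of equal number, the step also varied in size. A difference of more than 2-fold was seen in 4137 genes between the libraries numbered 1, in 3389 for number 2, in 3057 for number 3 and in 1971 for number 4. Across those pairs the median difference of the 737 genes was 1.71, 0.98, 1.1 and 0.58 on the log2 scale, and that of the 691 genes -1.76, -1.23, -1.33 and -0.33. All 4 pairs moved in the called direction in 688 of the 737 genes (93.4%) and in 533 of the 691 (77.1%). Of all tested genes, 16.2% were higher and 15.5% lower at day 4 in all 4 pairs. The genes were called on these same libraries, so such agreement is in part built in. The last pair holds the day 2 library that stood apart.

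The 4 libraries of one day did not overlap with the 4 of the other in 1314 of 14258 genes (9.22%), 728 (5.11%) higher and 586 (4.11%) lower at day 4. Of the 1428 called genes, 400 of the 737 and 240 of the 691 were separated in this way, and the remaining 788 had at least 1 overlapping library. Without PDMS day 2 replicate 4, 4220 of 14248 genes (29.6%) were separated, where 3 libraries face 4. With that library, separated genes were fewer than called genes, and without it they were more. Groups of 3 and 4 libraries separate by chance more often than groups of 4 and 4. The counts with and without that library are therefore not on the same scale.

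Few genes had reads in every library of one day and in none of the other. Among all 32753 IDs, 22 had no read in any PDMS day 2 library and at least 1 in every PDMS day 4 library, and 14 showed the reverse. With at least 3 reads summed over the other group as the only condition, the numbers were 177 and 284. Such counts are too low for a statement on absence.

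4 IDs stand for the extremes, the 2 steepest rises and the 2 steepest falls among called genes whose groups did not overlap and whose higher group averaged at least 5 CPM. That condition was met by 335 genes that rose and 187 that fell. What these genes encode is not paired with the IDs in the files.

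ENSRNOG00000011946 was the steeper of the 2 rises. It stood at 1.06, 2.74, 2.44 and 17.3 CPM in PDMS day 2 replicates 1 to 4 and at 134, 17.4, 147 and 214 CPM in PDMS day 4 replicates 1 to 4. The highest day 2 library, replicate 4, and the lowest day 4 library, replicate 2, nearly met. The log2 fold change was 4.44 ± 1.10 (SE; edgeR adjusted p = 0.0207), and 5.95 (adjusted p = 0.00198) without PDMS day 2 replicate 4. It was higher still on PDMS at day 7, at 497 ± 241 CPM (SD, n = 4), and on day 14, at 1295 ± 604 CPM (n = 4). Plastic day 4 had a mean of 108 ± 146 CPM (n = 4), Plastic day 7 one of 349 ± 343 CPM (n = 3) and Plastic day 14 one of 1003 ± 469 CPM (n = 4). Its later single steps did not pass, with log2 fold changes of 1.96 ± 0.98 from PDMS day 4 to day 7 (SE; edgeR adjusted p = 0.44) and 1.38 ± 0.96 from PDMS day 7 to day 14 (adjusted p = 0.362).

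ENSRNOG00000051307 was the other rise. It stood at 0.447, 0.977, 0.431 and 1.33 CPM at PDMS day 2 and at 12.2, 4.23, 28.5 and 22.3 CPM at PDMS day 4, replicates 1 to 4 in each. All 4 day 4 libraries lay at more than 3 CPM and all day 2 libraries below 2 CPM, with day 4 replicate 2 again the lowest of its group. The log2 fold change was 4.40 ± 1.10 (SE; edgeR adjusted p = 0.0217), and 4.77 (adjusted p = 0.0115) without PDMS day 2 replicate 4. The means afterwards were 30.5 ± 11.1 CPM at PDMS day 7 (SD, n = 4) and 107 ± 74.1 at PDMS day 14 (n = 4), and on plastic 21 ± 31.3, 46.3 ± 36 and 105 ± 105 CPM at days 4, 7 and 14 (n = 4, 3 and 4).

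ENSRNOG00000016826 was the steeper of the 2 falls. Its counts in PDMS day 2 replicates 1 to 4 were 646, 64, 652 and 20, or 26.3, 3.13, 31.2 and 0.95 CPM. In PDMS day 4 replicates 1 to 4 they were 1, 8, 10 and 2, or 0.0437, 0.345, 0.446 and 0.0977 CPM. Day 2 replicate 4 was the lowest of its group, yet above every day 4 library. The log2 fold change was -6.00 ± 1.04 (SE; edgeR adjusted p = 0.00789), and -6.39 (adjusted p = 0.000106) without PDMS day 2 replicate 4. The ID stayed near the detection limit afterwards, with 1 to 5 counts per library at PDMS day 7 and 0 or 1 at PDMS day 14, and with at most 9 counts in any plastic library.

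ENSRNOG00000006767 was the other. Its counts in PDMS day 2 replicates 1 to 4 were 653, 120, 71 and 10, or 26.5, 5.86, 3.4 and 0.475 CPM. At PDMS day 4 they were 9, 0, 10 and 6, or 0.393, 0, 0.446 and 0.293 CPM. The lowest day 2 library, replicate 4, and the highest day 4 library, replicate 3, held 10 counts each and were separated by library size alone. The log2 fold change was -4.98 ± 1.05 (SE; edgeR adjusted p = 0.0115), and -5.38 (adjusted p = 0.000518) without PDMS day 2 replicate 4. Over days 7 and 14 it had 0 to 2 counts per library on either surface.

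The calls of these IDs were not equally firm. Leaving out 1 of the 8 libraries at a time, the highest edgeR adjusted p was 0.0329 for ENSRNOG00000016826, 0.0719 for ENSRNOG00000006767, 0.0916 for ENSRNOG00000011946 and 0.0965 for ENSRNOG00000051307, with log2 fold changes from -6.50 to -5.40, from -5.38 to -3.48, from 4.08 to 5.95 and from 4.02 to 4.77. In the fit of the 8 libraries alone none of them passed (edgeR adjusted p from 0.114 to 0.134). With the replicate block in that fit, ENSRNOG00000051307 passed (edgeR adjusted p = 0.048), while ENSRNOG00000011946 (0.0532), ENSRNOG00000016826 (0.0556) and ENSRNOG00000006767 (0.106) did not. With limma-voom both rises missed the threshold (adjusted p = 0.0543 for ENSRNOG00000011946 and 0.159 for ENSRNOG00000051307). Both falls went untested under the stricter filter (at least 50 reads in at least 4 libraries). They reached 50 reads in PDMS day 2 replicates 1 to 3 only. The large folds of the 4 IDs follow from the way they were picked and speak for no other gene.

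**Figure D5:**
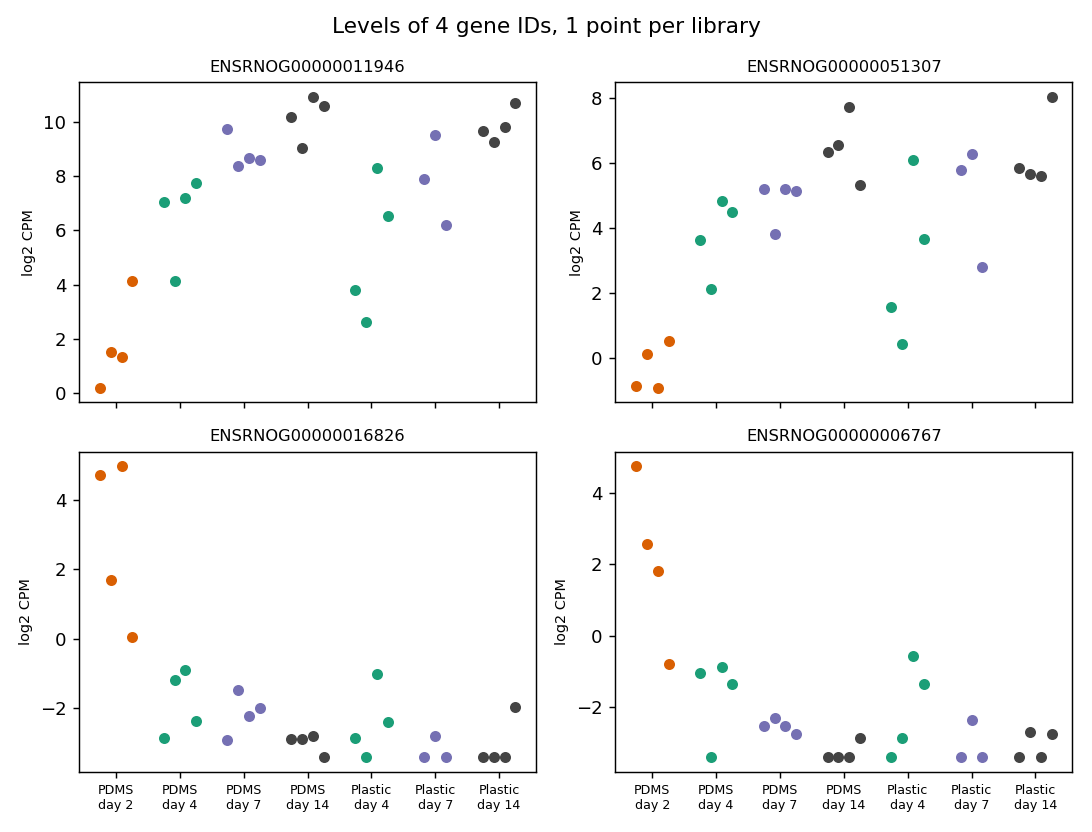
Level of 4 gene IDs (log2 CPM, y axis) in each of the 27 libraries, by group, 1 point per library. The 2 IDs of the upper row climb from PDMS day 2 to day 4 and stand higher at day 14 on both surfaces, and those of the lower row drop after PDMS day 2 to at most 13 counts in any later library.

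The step from day 4 to day 7 on PDMS, which shares the day 4 libraries, called 21 genes (0.147%), all lower at day 7 (edgeR, n = 4 and 4; 1708 at an unadjusted p under 0.05). Leaving out 1 of those 8 libraries gave 3, 10, 3 and 4 genes without PDMS day 4 replicates 1 to 4, and 4, 1, 9 and 1 without PDMS day 7 replicates 1 to 4. The 21 genes held 12 of the 691 called lower at day 4 (1.74%), while 0 of the 737 were called higher again. Median log2 fold changes in this step were 0.23 for the 737, -0.49 for the 691 and -0.01 for all genes. The shared day 4 libraries push these medians against the called direction. The larger number of calls between days 2 and 4 does not show that the steps differ. A test of the difference between both steps called 0 genes with edgeR, DESeq2 and limma-voom (smallest edgeR adjusted p = 0.999), and 682, 818 and 610 genes had an unadjusted p under 0.05. Without PDMS day 2 replicate 4 it called 4 genes, and without PDMS day 7 replicate 3 it called 1. Plastic day 4 against PDMS day 2 shares the day 2 libraries and called 1544 genes (10.8%), 860 (6.03%) higher and 684 (4.80%) lower at Plastic day 4, side by side with the 1428 on PDMS.

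The levels of the 1428 genes were set side by side over all groups. Relative to PDMS day 2, the median of the 737 genes was 1.15 on the log2 scale at PDMS day 4, 1.35 at PDMS day 7 and 1.52 at PDMS day 14. For the 691 genes it was -1.25, -1.75 and -1.66. On plastic the medians were 0.93, 1.55 and 1.62 for the 737 genes and -0.97, -1.49 and -1.6 for the 691 genes at days 4, 7 and 14. All of these differences share the PDMS day 2 baseline that chose the genes, which pushes them in the called direction, so they are a description and no test of a lasting change. Against PDMS day 2 without replicate 4 the medians at PDMS days 4, 7 and 14 were 1.38, 1.57 and 1.75 for the 737 genes and -1.58, -2.11 and -2.02 for the 691.

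Steps that share no library with the contrast show how far the same genes went on moving. From day 7 to day 14 on PDMS 5.53% of all genes were called. There, 20 of the 737 genes (2.71%) were called higher, against 2.92% of all genes, and 11 of the 691 (1.59%) were called lower, against 2.60% of all genes (edgeR). By DESeq2 it was 59 (8.01%) against 6.94% of all genes, and 22 (3.18%) against 5.92%. By limma-voom it was 39 (5.29%) against 3.88%, and 8 (1.16%) against 3.37%. The share of the 737 thus lay near the background, on either side of it by setting. With edgeR it was 2.04% against 1.84% with library size in place of TMM. Without a filter it was 1.49% against 1.06%, and with the stricter filter 3.39% against 3.91%. The share of the 691 lay under the background with all 3 tools. Whether these shares differ from the background was not tested. The median log2 fold changes in that step were 0.18 for the 737, -0.02 for the 691 and 0.01 for all genes. The fold change was positive in 69.9% of the 737, 47.3% of the 691 and 51% of all genes. The step from day 4 to day 7 on plastic had n = 4 and 3, with no Plastic day 7 replicate 2. In it, 0 genes in all were called (0%). The medians were 0.52 for the 737 genes, -0.53 for the 691 genes and -0.04 for all genes. A positive fold change was seen in 95.9% of the 737, 10.3% of the 691 and 46% of all genes. Relative to PDMS day 2, the median of the 737 was 0.57, 0.59, 1.27 and 1.22 in Plastic day 4 replicates 1 to 4. It was 1.52, 1.64 and 1.33 in Plastic day 7 replicates 1, 3 and 4. For the 691 it was -0.78, -0.78, -0.89 and -1.19 at Plastic day 4 and -1.47, -1.62 and -1.39 at Plastic day 7. By DESeq2, 64 of the 737 (8.68%) were called higher in that plastic step, against 1.49% of all genes, and 54 of the 691 (7.81%) were called lower, against 1.23%. By limma-voom 2 of the 737 (0.271%) were called higher, against 0.0140% of all genes, and 0 of the 691 were called lower, as were 0 of all genes. In this step 2665 genes had an unadjusted p under 0.05 with edgeR. From day 7 to day 14 on plastic 0.0842% of all genes were called. The medians were 0.12 and -0.08 in that step, and 63.9% of the 737, 41.7% of the 691 and 50.3% of all genes had a positive fold change. There, 0 of the 737 genes were called higher, against 0.0210% of all genes, and 2 of the 691 were called lower, against 0.0631% of all genes.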

How the data were processed

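Libraries were made from 200 ng of total RNA with the TrueSeq RNA Sample Prep Kit and read on a HiSeq2000, per the labels' protocols and the series design text. The authors deposited raw counts per Ensembl gene ID. The design text names FastQC 0.11.2, bamUtil 1.0.11, dupRadar 1.4 and Cufflinks, and the submitters' processing notes add STAR and DESeq2. Counting program, strand setting, genome build and annotation were not given in the sources used here. Near-identical, overlapping or antisense genes may share reads. Of 28 columns, 1 matches no listed sample and was not used, nor were the depth-scaled and variance-stabilized tables.

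The analysis ran in edgeR 4.0.16 (R 4.3.3). filterByExpr kept 14258 genes (99.9% or more of the counts in any library), TMM scaled the libraries, and the quasi-likelihood fit gave each of the groups its own mean over all 27 libraries (20 residual degrees of freedom, median biological coefficient of variation 0.243). Genes were called at an adjusted p under 0.05. SE was taken as the absolute log2 change divided by √F. log2 CPM has a prior count of 2. Alternatives were DESeq2 1.42.0, limma-voom 3.58.1, library size in place of TMM, no filter (1 read in any library), at least 50 reads in at least 4 libraries, fewer libraries and a replicate block. All pairs of equal number had correlated deviations (over 0.1), which decided the pairing. The block was set for PDMS days 2 and 4 only, also in the fit of all libraries. In simulated counts for this comparison (14044 genes tested, 200 changed), 43% of 2-fold and 78% of 4-fold changes were recovered, and 5 unchanged genes were called.

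The comparison, the gene lists and the rules were chosen with earlier results of these data known. The rule for named genes asked for symbols, and with no match fell back on the 2 steepest rises and 2 steepest falls among called genes without overlap and with at least 5 CPM in the higher group. The lists of pathway and cell type genes, written as symbols, were not run. Positions, spread, reads by gene set and the steps that share no library with the contrast were added after the data were seen, as were levels and shares of reads without PDMS day 2 replicate 4.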

Additional observations from a re-analysis of the deposited data

Results flagged for a closer look

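Reads were spread over more genes in PDMS day 2 replicate 2 than in its group. Its effective gene number, the exponentiated entropy of read shares, was 4596, where the other 3 libraries of its group had 3825 to 3923. PDMS day 4 replicate 2 scored -72.7 on the second principal component of the 8 libraries, where the other 3 of its group scored 21.2 to 29.7. In each case the gap to the nearest library took up most of the group's range by Dixon's criterion, which chance meets in about 1 of 20 groups. Among 26 groups tested, 2 were marked, and chance gives about 1.3.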

How the results depend on the processing

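The number of genes called between PDMS days 2 and 4 ran from 56 to 3307 when 1 library was left out (25 to 1767 higher, 31 to 1540 lower). DESeq2 called 2414 (1114 higher, 1300 lower), of which 736 and 683 were among the 737 and 691. The 8 libraries alone gave 0 (0 higher, 0 lower), and with the replicate block 263 (125 higher, 138 lower), of which 77 and 54 were among the 737 and 691. The replicate block in the fit of all libraries gave 1110 higher and changed neither the direction nor the call of any of the 4 IDs, whereas in the blocked fit of the 8 libraries 3 of the 4 lost their calls. Library size in place of TMM, limma-voom and both other filters gave 1030 to 1471 genes. In all settings run 0 of the 1428 genes were called in the opposite direction. All settings reuse the same libraries, so an opposite call was unlikely from the start. Rises made up 51.6% of the calls, 58.9% with limma-voom and 34.6% without PDMS day 2 replicate 2. The step from PDMS day 4 to day 7 called 32 genes with library size, 383 with DESeq2, 7 with limma-voom, 4 without a filter and 0 with the stricter filter, and 1 to 10 with 1 library left out. The difference of steps called 0 to 4 with 1 library left out. The causes of these shifts were not tested. Genes called higher at day 4 that were also called higher from PDMS day 7 to day 14 numbered 20, against 59 by DESeq2 and 39 by limma-voom, which also called more genes in all. At this depth, 43% of simulated 2-fold changes were found, in counts with an equal spread in all groups and no library set apart. A gene without a call may still have changed, and the rate for the real libraries was not measured.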
